A study of Mus musculus with 36 samples.

Results

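The kidney transcriptome of ob mice given cadmium chloride at 0.5 mg/kg was compared with that of untreated ob mice. The samples were chosen by their titles, 6 labelled ob 0.5 mg/kg and 6 labelled ob control, which makes 12 of the 36 libraries of the series, and all 55536 annotated genes were considered. The ob mice are ob/ob animals on a C57BL/6 background, which lack functional leptin and become obese, and the remaining libraries come from ob kidneys at 2 mg/kg and from normal C57BL/6 (b6j) kidneys that were untreated or given either dose. All groups carry the strain label C57BL/6, and the labels give neither the age nor the sex of the mice, nor the route and length of treatment. Each group is called by its genotype and dose below, and untreated libraries are called controls.

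Cadmium in the body is carried largely by metallothioneins, small cysteine-rich proteins that also buffer zinc and copper, and the proximal tubule of the kidney is its best known site of accumulation. Metallothionein genes are switched on by MTF1, a zinc-sensing factor that binds metal response elements in promoters. Cadmium also binds thiols, and cells answer thiol stress through NRF2, which acts at antioxidant response elements upstream of genes for glutathione synthesis, conjugation enzymes and NADPH supply, and which shares the heme oxygenase gene Hmox1 with other stress pathways.

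Promoter sequences of 3 genes that rose are shown here because they hold the letters of these elements. Each runs from 250 bases before to 30 bases after the RefSeq start on the plus strand of GRCm38.p6. In Mt1 and Mt2 the capitals mark the core of the metal response element, searched as TGCACNC or TGCGCNC on both strands, and in Txnrd1 they mark the core of the antioxidant response element, searched as TGACNNNGC on both strands.
Mt1, chr8:94178839-94179118: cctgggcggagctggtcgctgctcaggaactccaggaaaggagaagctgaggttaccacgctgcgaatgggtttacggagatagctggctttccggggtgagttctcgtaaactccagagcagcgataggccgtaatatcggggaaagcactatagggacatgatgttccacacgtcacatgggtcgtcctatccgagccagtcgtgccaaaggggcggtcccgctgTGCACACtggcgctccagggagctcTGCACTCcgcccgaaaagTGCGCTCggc
Mt2, chr8:94172368-94172647: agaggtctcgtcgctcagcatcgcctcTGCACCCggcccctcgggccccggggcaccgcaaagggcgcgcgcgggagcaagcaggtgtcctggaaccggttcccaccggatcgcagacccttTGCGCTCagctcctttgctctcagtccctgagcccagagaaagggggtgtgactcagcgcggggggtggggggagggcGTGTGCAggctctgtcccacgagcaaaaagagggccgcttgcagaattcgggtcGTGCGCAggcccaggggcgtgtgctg
Txnrd1, chr10:82858956-82859235: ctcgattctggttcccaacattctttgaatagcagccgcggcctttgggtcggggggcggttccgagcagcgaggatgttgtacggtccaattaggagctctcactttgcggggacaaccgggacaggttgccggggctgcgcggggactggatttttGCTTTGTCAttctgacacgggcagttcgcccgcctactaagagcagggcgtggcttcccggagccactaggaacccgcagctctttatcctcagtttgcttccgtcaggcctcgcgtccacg
Mt1 holds 3 matches and Mt2 holds 4, while 25.7% of 32851 RefSeq promoter windows of 300 bases hold at least 1 and 1.97% hold 3 or more. The antioxidant element is matched in 12.4% of the same windows. Of 151 genes called higher by over 2 times that have a window, 18.5% hold the antioxidant letters and 27.8% the metal letters in at least 1 window, against 16.9% and 39.3% of 11798 tested genes, and these shares were not tested against each other. Txnrd1 has 3 windows, of which the one shown holds the antioxidant letters and the other two hold none. Short letter matches are a description and not a bound site.

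The 12 libraries held 28693083 to 32669498 assigned counts each. On the first principal component, which carried 26.4% of the variance of the 12 libraries, the controls lay between -28.23 and -16.94 and the treated libraries between 17.82 and 29.52. Levels below are CPM, read counts scaled to a common library size with TMM factors over all 36 libraries, and changes are log2 fold changes, 0.5 mg/kg minus control, with their standard errors from edgeR's quasi-likelihood test. A gene is called where its p-value, adjusted by the Benjamini-Hochberg method over 16427 genes tested, is below 0.05. The labels do not say that each library is a separate animal, so these p-values measure the spread between the libraries.

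At this dose 1989 genes were called, which is 12.1% of those tested. Of these, 1306 (7.95% of genes tested) rose and 683 (4.16%) fell. Most changes were small, since 905 of the genes that rose and 616 of those that fell did so by 1.5 times or less. Large changes were nearly all rises, with 205 genes higher and 15 lower by over 2 times, and 74 higher and 1 lower by over 4 times. Many of these genes had low counts: 65 of the 205 and 2 of the 15 had a mean of at least 5 CPM. In 693 of the genes that rose all 6 treated libraries lay above all 6 controls, and in 226 of those that fell they lay below. Over all genes tested, such separation was seen upward in 4.49% and downward in 1.52%. The median log2 change of all genes tested was -0.02. When libraries were scaled by total count alone that median moved to -0.113, and the calls became 822 higher and 2504 lower, so the direction of small changes depends on the scaling. In 1 model over 36 libraries, which takes in the spread of a 2 mg/kg library that stands apart, 645 genes were called higher and 130 lower.

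**Figure D1:**
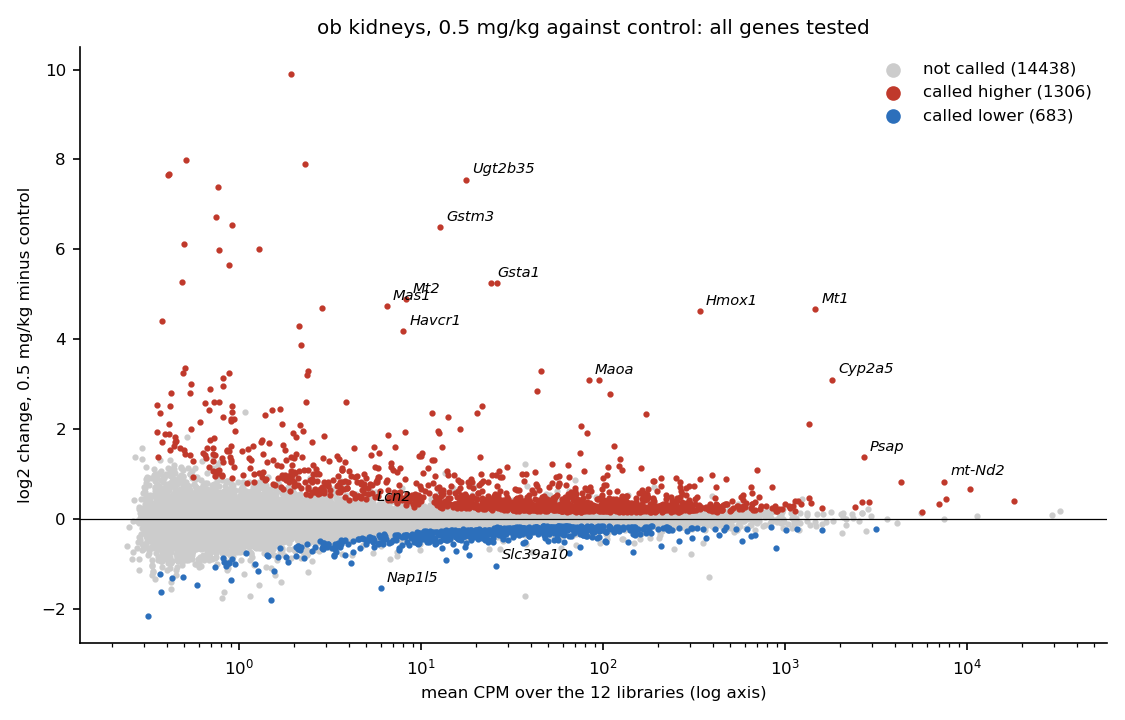
Log2 change of each of the 16427 genes tested (y axis, 0.5 mg/kg minus control) against its mean CPM over the 12 libraries (x axis, log scale), with called genes in red or blue. Red points reach far above the zero line while blue points stay close to it, with 205 genes higher and 15 lower by over 2 times.

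Metallothionein transcripts were higher in every treated library than in any control. Mt1 (ENSMUSG00000031765, GRCm38 chr8:94179082-94180327, plus strand) ran from 91.0 to 150 CPM in controls, with a median of 106, and from 2020 to 3200 CPM at 0.5 mg/kg, with a median of 2930. The groups did not overlap, and the lowest treated library, replicate 4, stood well below the other 5. The mean rose 25.4 times, a log2 change of 4.66 ± 0.15 (SE; adjusted p = 5.44e-10). Mt2 (ENSMUSG00000031762, chr8:94172664-94173568), the gene next to Mt1, went from 0.232 to 0.977 CPM in controls to 9.27 to 19.8 CPM, a log2 change of 4.89 ± 0.28 (adjusted p = 3.88e-08), again with replicate 4 lowest. Its level is an undercount. Only 156 of its 588 exon bases (26.5%) are not shared with other genes, the antisense gene Gm45774 among them, and the recorded counting command sets no option to keep reads that overlap more than 1 gene. Gm45774 itself was counted at 0 to 0.0591 CPM in controls and at 1.38 to 2.16 CPM in treated libraries, and without strand its reads cannot be told apart from those of Mt2.

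Of 26 tested genes of metal binding and zinc transport, 7 rose (26.9%, against 7.95% of all genes tested) and 2 fell (7.69%, against 4.16%), with a median log2 change of 0.03. Besides the metallothioneins, the zinc importer Slc39a5 rose by 0.96 ± 0.07 (adjusted p = 1.49e-09), from 33.8 to 43.1 CPM in controls to 68.8 to 82.5 CPM. Slc30a2, which moves zinc into vesicles, rose by 1.06 ± 0.13. The importer Slc39a10 moved the other way: it fell by 1.04 ± 0.12 on the log2 scale (adjusted p = 3.5e-05), from a control median of 33.7 CPM to 15.9 CPM, and the highest treated library, at 21.9, was below the lowest control, at 31.4. Slc39a13, a zinc transporter of the secretory pathway, fell by 0.24. The zinc exporter Slc30a1, a known MTF1 target, had a log2 change of 0.50 ± 0.20 and was not called (adjusted p = 0.117). Scaling by total count alone gave 6 higher and 6 lower in this list, and the shared model over 36 libraries gave 4 and 1.

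**Figure D2:**
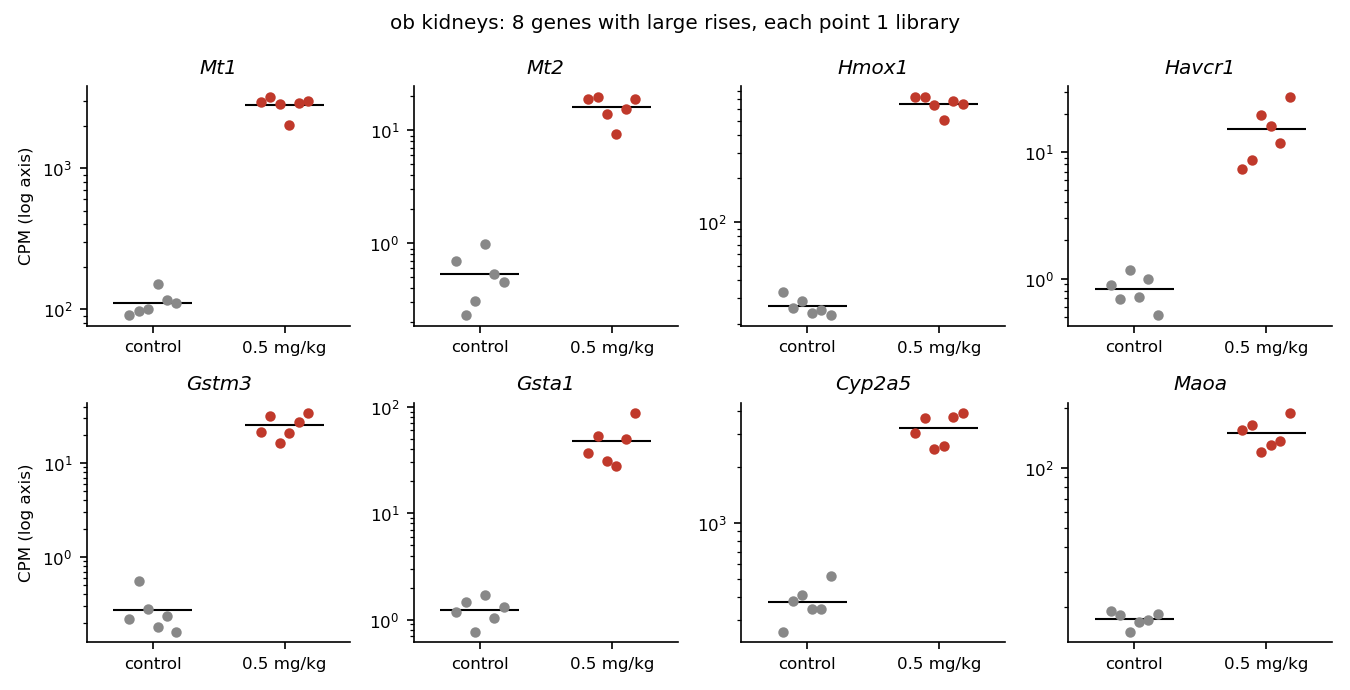
CPM of 8 genes in each of the 12 libraries (y axes, log scale), controls in grey and 0.5 mg/kg in red, with the group mean as a line. No treated point overlaps a control point in any panel, and the spread among treated libraries is widest for Havcr1, at 7.38 to 27.3 CPM.

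Some genes of heme breakdown and iron storage rose. Hmox1 (ENSMUSG00000005413, chr8:75093621-75100589), the enzyme that opens the heme ring, went from 23 to 32.9 CPM, with a median of 25.3, to 507 to 727 CPM, with a median of 665. This is a log2 change of 4.62 ± 0.11 (adjusted p = 4.28e-14), and replicate 4 was again the lowest treated library. In the list of heme and iron genes 8 of 27 tested rose (29.6%, against 7.95% of all genes tested), 19 were not called and 0 fell, with a median of 0.09 (2 fell when scaled by total count alone). Biliverdin reductase B, Blvrb, which acts after heme oxygenase, rose by 0.99 ± 0.08. The iron store was represented by ferritin heavy chain Fth1, at 2610 to 3480 CPM in controls and 4590 to 6320 CPM in treated libraries (log2 change 0.82 ± 0.08), and ferritin light chain Ftl1, which rose by 0.70 ± 0.10. The heme transporter Slc48a1 rose by 0.40 ± 0.05 and the iron exporter Slc40a1 (ferroportin) by 0.63 ± 0.08.

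Of 38 tested NRF2 regulators and targets, 25 rose and 3 fell, a rise in 65.8% against 7.95% of all genes tested, with a median log2 change of 0.33. Thioredoxin reductase Txnrd1, whose promoter is shown above, went from 158 to 187 CPM to 294 to 353 CPM (0.90 ± 0.06, adjusted p = 2.78e-10). The carbonyl reductases rose further, Cbr1 by 1.14 ± 0.08 and Cbr3 by 2.52 ± 0.16. Gclc, the catalytic subunit of the rate-limiting enzyme of glutathione synthesis, rose by 0.73 ± 0.06, and Sqstm1, the autophagy adaptor p62 that competes for the NRF2 repressor KEAP1, rose by 0.71 ± 0.06. The 3 that fell were Nfe2l2, the gene of NRF2 itself (-0.18 ± 0.05, adjusted p = 0.0256), the efflux pump Abcc3 (-0.54 ± 0.13) and the reductase Akr1b10 (-0.28 ± 0.06). Nfe2l2 lost its call without any 1 of 6 libraries (adjusted p 0.0512 to 0.067). Scaling by total count gave 20 higher and 4 lower, and the shared model over 36 libraries 15 and 1.

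Conjugation and detoxification enzymes made up much of the top of the list, and Ugt2b35 and Gstm3 rose most of all called genes that averaged 5 CPM or more over the 12 libraries. Glutathione S-transferases couple glutathione to reactive compounds. Of 24 tested, 11 rose (45.8%, against 7.95% of all genes tested) and 1 fell (4.17%, against 4.16%), with a median of 0.24. Gstm3 went from 0.161 to 0.551 CPM to 16.5 to 33.8 CPM, a rise of 93.4 times (6.50 ± 0.27, adjusted p = 1.11e-09). Gsta1 went from 0.773 to 1.69 CPM to 27.6 to 86.6 CPM (5.24 ± 0.36), with replicate 6 highest. The unnamed family members Gm3776 (5.24 ± 0.41) and Gm10639 (3.29 ± 0.20) rose too, and reads of these near-identical copies could be split among them. More abundant members changed less: Gstm1 rose by 2.12 ± 0.10, Gsta2 by 1.09 ± 0.06, Gsta3 by 0.69 ± 0.06 and Gstm5 by 0.65 ± 0.06. Gstt1, of the theta class, fell by 0.31 ± 0.06 on the log2 scale.

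Glucuronosyltransferases attach glucuronic acid to drugs, bilirubin and steroids. Of 16 tested, 7 rose (43.8%, against 7.95% of all genes tested) and 0 fell, with a median of 0.75. Ugt2b35 was close to absent in controls, at 0 to 0.443 CPM, and stood at 20.1 to 53.3 CPM in treated libraries, a rise of the mean of 192 times (7.55 ± 0.42, adjusted p = 5.02e-07). Ugt2b5 rose by 2.84 ± 0.29 and Ugt2b34 by 2.77 ± 0.14, from 24.2 to 32.9 CPM to 146 to 271 CPM. Ugt2a3 rose by 0.89 ± 0.19. Ugt1a9 rose by 2.22 ± 0.38, but only 40.1% of its exon bases are not shared with other genes of the Ugt1a cluster. In the shared model over 36 libraries 4 of the family were called higher.

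Carboxylesterases hydrolyse esters and amides. Of 15 tested, 10 rose (66.7%, against 7.95% of all genes tested) and 1 fell (6.67%, against 4.16%), with a median of 0.97. Ces1g went from 11.1 to 25.3 CPM to 149 to 189 CPM (3.10 ± 0.19). Ces1a had no count in any control library and 0.483 to 1.51 CPM in treated ones, which is at least 10.6-fold higher when each control is set to 3 counts. Ces2e rose by 1.92 ± 0.12, Ces2g by 1.00 ± 0.09 and Ces2c by 0.97 ± 0.09. Ces1d fell by 0.49 ± 0.07 on the log2 scale, from 616 to 784 CPM to 417 to 565 CPM.

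Among 57 tested cytochrome P450 genes 7 rose (12.3%, against 7.95% of all genes tested) and 3 fell (5.26%, against 4.16%), shares near those of all genes, and the median was -0.01. The coumarin hydroxylase Cyp2a5 went from 260 to 516 CPM to 2490 to 3890 CPM (3.10 ± 0.18, adjusted p = 7.87e-07). Cyp2c38 rose by 3.28 ± 0.22, Cyp2c69 by 1.36 ± 0.18 and Cyp2j9 by 0.43 ± 0.07. Cyp2d26 fell by 0.43 ± 0.08, Cyp39a1 by 0.32 ± 0.09 and Cyp2c23 by 0.32 ± 0.09. Cyp39a1 lost its call without any 1 of 3 libraries (adjusted p 0.051 to 0.0637) and Cyp2c23 without any 1 of 5 (adjusted p 0.0547 to 0.0694). The number of falls was 1 without control replicate 4 or treated replicate 2 and 5 without control replicate 5. With total-count scaling the balance of the family reversed, with 6 higher and 11 lower. Of 20 aldehyde dehydrogenases 6 rose (30%, against 7.95% of all genes tested) and 0 fell (1 fell with scaling by total count). The rises were led by the retinal-oxidising Aldh1a1 (1.62 ± 0.11) and the mitochondrial Aldh1b1 (1.57 ± 0.18). Maoa, the mitochondrial monoamine oxidase A, went from 15.1 to 19.2 CPM to 120 to 188 CPM (3.09 ± 0.10, adjusted p = 1.11e-11). Mas1, the receptor of angiotensin 1-7, went from 0.148 to 0.811 CPM to 10.7 to 15.2 CPM (4.74 ± 0.25).

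Reductive enzymes need NADPH. Of 17 tested genes of its supply, 6 rose (35.3%, against 7.95% of all genes tested) and 1 fell (5.88%, against 4.16%; median 0.15). Pgd, of the oxidative pentose phosphate pathway, rose by 0.57 ± 0.06. In the non-oxidative branch Rpia rose by 0.84 ± 0.06, Tkt by 0.35 ± 0.06 and Taldo1 by 0.28 ± 0.06. Malic enzyme Me1 rose by 0.47 ± 0.07. G6pdx, which opens the pathway, ran from 33.1 to 40.2 CPM in controls and from 33.5 to 40.9 CPM in treated libraries and was not called (0.06 ± 0.06, adjusted p = 0.623). Me3, the mitochondrial malic enzyme, fell by 0.20 on the log2 scale, a call lost without any 1 of 9 libraries (adjusted p 0.0502 to 0.0937).

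Of 59 tested genes of lysosomes and autophagy, 25 rose (42.4%, against 7.95% of all genes tested), 33 were not called and 1 fell, with a median of 0.18. Psap, the precursor of the saposins that help to degrade sphingolipids, went from 1360 to 1710 CPM to 3310 to 4800 CPM, a rise of 2.61 times (1.38 ± 0.08, adjusted p = 2.59e-11). The aspartic protease Ctsd went from 301 to 352 CPM to 566 to 702 CPM (0.88 ± 0.06). Ctsa (0.70 ± 0.06) and Ctsz (0.73 ± 0.06) rose with no overlap between the groups. Of 13 cathepsins 6 rose (46.2%, against 7.95% of all genes tested) and 0 fell. The member that fell was Atp6v0d2, a proton pump subunit of intercalated cells (-0.31 ± 0.07). Total-count scaling gave 18 lysosomal genes higher and 4 lower.

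**Figure D3:**
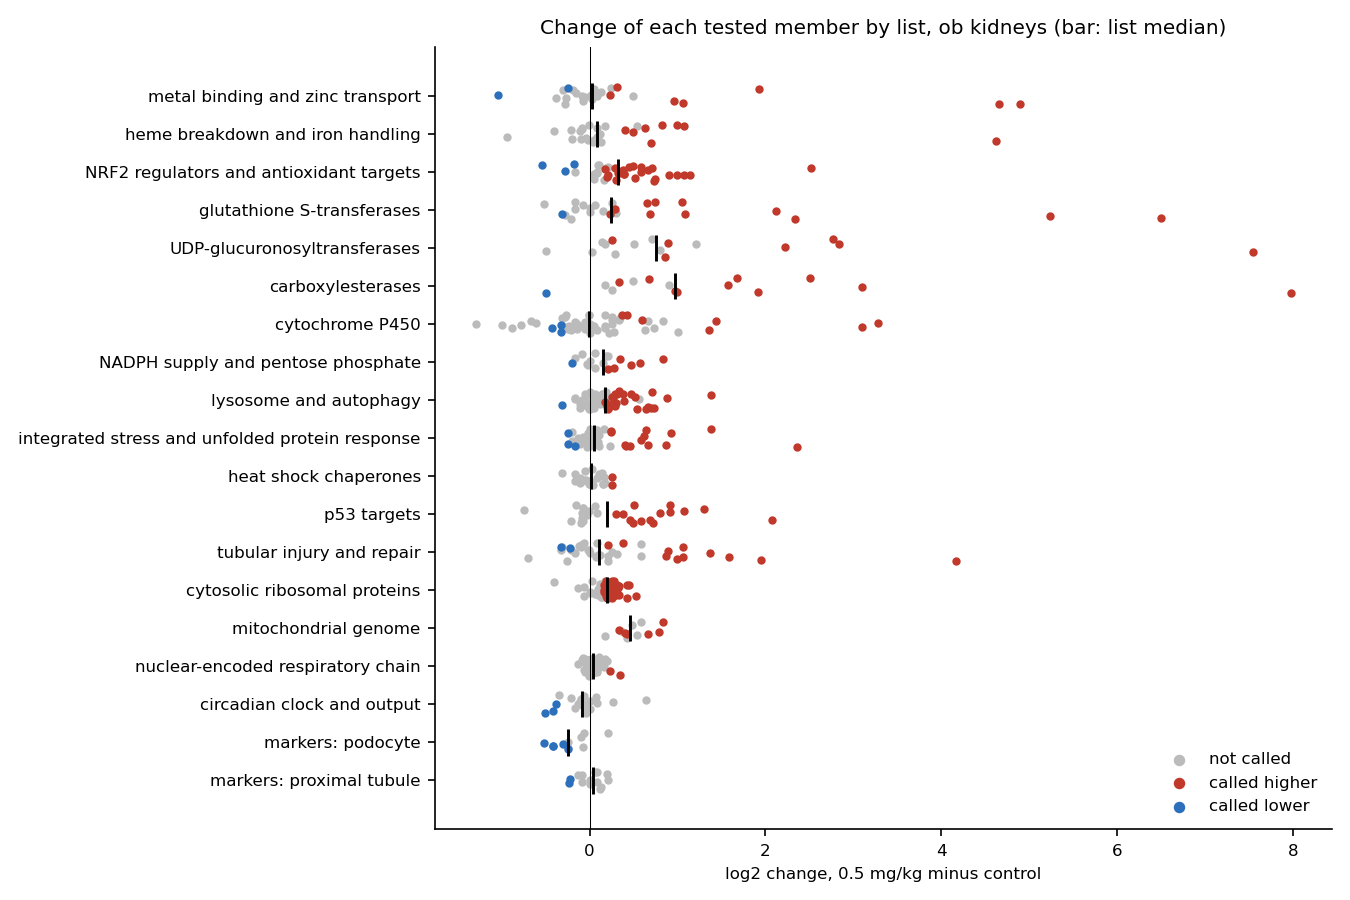
Log2 change of each tested member (x axis, 0.5 mg/kg minus control) for 19 gene lists (y axis), with genes called higher in red, called lower in blue, others in grey, and the list median as a bar. Carboxylesterases and glucuronosyltransferases have the medians farthest to the right, at 0.97 and 0.75, and podocyte markers lie to the left, at -0.24.

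The integrated stress response slows translation and raises amino acid synthesis through ATF4, while the unfolded protein response raises chaperones of the endoplasmic reticulum. Of 43 tested genes of both, 13 rose (30.2%, against 7.95% of all genes tested) and 3 fell (6.98%, against 4.16%), with a median of 0.05. The stress cytokine Gdf15 went from 5.28 to 8.24 CPM to 29.0 to 40.6 CPM (2.36 ± 0.11, adjusted p = 1.98e-11). The ATF4 targets Trib3 (1.38 ± 0.19), Asns (0.93 ± 0.14), Mthfd2 (0.87 ± 0.12) and Shmt2 (0.40 ± 0.06) rose, as did Atf4 itself (0.24 ± 0.05). Dnajb9, a chaperone of the endoplasmic reticulum, rose by 0.42 ± 0.06, whereas Manf (-0.25 ± 0.06), Herpud1 (-0.25 ± 0.06) and Xbp1 (-0.17 ± 0.05) fell. Xbp1 lost its call without any 1 of 5 libraries (adjusted p 0.0582 to 0.0824). This list depended on the model, with 3 higher and 0 lower in the shared model over 36 libraries and 10 higher and 7 lower under scaling by total count. Of 24 heat shock chaperones and partners, 2 rose (8.33%, near the 7.95% of all genes tested) and 0 fell. The 2 that rose were Hsp90aa1 and the co-chaperone Bag3, each by 0.26. Bag3 lost its call without any 1 of 5 libraries (adjusted p 0.0566 to 0.0794), and scaling by total count turned the list to 0 higher and 3 lower.

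Genes that p53 activates after DNA damage and other stress rose in 14 of 28 tested (50%, against 7.95% of all genes tested). The number that fell was 0 and the median was 0.20. Scaling by total count gave 14 higher and 3 lower, and the shared model over 36 libraries 6 and 0. The cell cycle inhibitor Cdkn1a went from 5.82 to 7.66 CPM to 11.3 to 22.7 CPM (1.30 ± 0.15, adjusted p = 1.07e-05). The death receptor Eda2r rose by 2.08 ± 0.21, from 0.58 to 1.12 CPM to 2.76 to 4.72 CPM. Ccng1 (0.91 ± 0.10), Trp53inp1 (0.80 ± 0.07) and the pro-apoptotic Bax (0.72 ± 0.07) rose without overlap. In the cell cycle list 9 of 36 rose (25%, against 7.95%) and 1 fell (2.78%, against 4.16%), with a median of 0.24. The mitotic genes Cenpe (1.03 ± 0.16), Nusap1 (0.95 ± 0.18), Top2a (0.86 ± 0.20) and Ccna2 (0.85 ± 0.18) were higher from low levels. Thymidine kinase Tk1 was lower (-0.66 ± 0.13). Without treated replicate 3 or 5 the number of rises was 5. Total-count scaling gave 6 and 6 in that list, and the shared model 3 and 1.

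The tubular injury list was split. Havcr1 (ENSMUSG00000040405, chr11:46735080-46779578), which encodes the injury marker KIM-1, went from 0.515 to 1.17 CPM, with a median of 0.798, to 7.38 to 27.3 CPM, with a median of 13.9 (4.17 ± 0.38, adjusted p = 2.71e-05). All 6 treated libraries lay above all controls, but they differed among themselves by more than 3 times. Lcn2, which encodes the injury marker NGAL, ran from 3.77 to 5.98 CPM in controls and from 4.67 to 7.25 CPM in treated libraries, and was not called (0.25 ± 0.14, adjusted p = 0.284). Over the list, 11 of 36 tested rose (30.6%, against 7.95% of all genes tested) and 2 fell (5.56%, against 4.16%), with a median of 0.11. The TWEAK receptor Tnfrsf12a rose by 1.37 ± 0.11, the matricellular Ccn1 by 1.06 ± 0.11, the fibrinogen gene Fgg by 0.89 ± 0.11 and Serpina10 by 1.95 ± 0.29. The 2 that fell were Prom1 (-0.33 ± 0.08) and Vim (-0.22 ± 0.07), and Vim lost its call without any 1 of 7 libraries (adjusted p 0.0585 to 0.0726). Clu (-0.06 ± 0.06), Spp1 (0.21 ± 0.09) and Krt20 (0.58 ± 0.60), which rise in overt tubular injury, were not called. The shared model over 36 libraries called 5 of the list higher.

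Genes of proximal tubule transport and enzymes, counted as a joint list, moved in both directions and by little. Of 69 tested, 12 rose (17.4%, against 7.95% of all genes tested) and 5 fell (7.25%, against 4.16%), with a median of 0.08. The phosphate transporter Slc20a1 rose by 0.77 ± 0.06, the acyl-CoA synthetase Acsm1 by 0.63 ± 0.06, the organic anion transporter Slco1a6 by 0.62 ± 0.07, the cubilin partner Amn by 0.47 ± 0.07 and the efflux pump Abcg2 by 0.39 ± 0.06. The 5 that fell were the glucose transporter Slc5a1 (-0.27 ± 0.06), G6pc (-0.36 ± 0.09), the water channel Aqp1 (-0.22 ± 0.06), the efflux transporter Slc47a1 (-0.22 ± 0.07) and Abcb1a (-0.38 ± 0.12). Aqp1, Slc47a1 and Abcb1a lost their calls without any 1 of 6, 8 and 10 libraries (adjusted p up to 0.0649, 0.098 and 0.103). The phosphate transporter Slc34a1, at 4900 to 5960 CPM in controls and 5080 to 6610 CPM in treated libraries, was not called (adjusted p = 0.209). The falls depended on single libraries: their number was 2 without control replicate 2, 3 or 4 or treated replicate 2 or 5, 3 without control replicate 1 or treated replicate 6, and 8 without treated replicate 4. With total-count scaling 10 rose and 10 fell, and in the shared model 5 and 0.

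Transcripts of the mitochondrial genome and of cytosolic ribosomal proteins took a larger share of the treated libraries. Of 12 tested mitochondrial messenger RNAs 6 rose (50%, against 7.95% of all genes tested) and 0 fell, with a median of 0.46. Without control replicate 4 the number that rose was 11. The summed level of the mitochondrial messenger RNAs went from 66700 to 84300 CPM to 86200 to 103000 CPM. The complex I subunit genes mt-Nd2 (0.83 ± 0.07), mt-Nd3 (0.79 ± 0.12), mt-Nd1 (0.67 ± 0.07), mt-Nd4 (0.43 ± 0.06) and mt-Nd5 (0.34 ± 0.08) rose, and so did mt-Cytb of complex III (0.40 ± 0.06). Of 37 nuclear genes of the respiratory chain only Cox6a1 (0.35 ± 0.07) and Atp5d (0.23 ± 0.06) rose (5.41%) and 0 fell. Scaling by total count turned this to 1 higher and 5 lower. Among cytosolic ribosomal protein genes Rps20 (0.33 ± 0.06) and Rps12 (0.31 ± 0.05) rose. Of 81 tested, 0 fell and 54 rose (66.7%, against 7.95% of all genes tested), with a median of 0.20. That count fell to 22 with scaling by total count and to 3 in the shared model over 36 libraries. For the mitochondrial genome the shared model called 2. In bulk tissue a change in RNA per cell and a change in the number of cells cannot be told apart.

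Falls were shallow. Among called genes with at least 5 CPM on average and no overlap, only Nap1l5 and Slc39a10 fell by over 2 times. Nap1l5, a nucleosome assembly protein gene, went from 7.11 to 10.9 CPM to 1.76 to 5.31 CPM (-1.54 ± 0.20, adjusted p = 3.51e-05). Pla2g7, a phospholipase that breaks down platelet-activating factor, went from 14.3 to 19.8 CPM to 7.25 to 13.1 CPM (-0.92 ± 0.13). A further 11 of the 15 deepest falls lay between -0.69 and -0.54. They were Mansc4, Acss3, Wdr90, Nup43, Cdkl1, Col27a1, the serotonin transporter Slc6a4, Gm12121, Dph7, Haus6 and Dhrs7, each with all 6 treated libraries below all 6 controls.

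A joint list held genes of fatty acid oxidation and PPAR-alpha targets. Of its 41 tested members 35 were not called, and the median was -0.07. In it 4 genes fell (9.76%, against 4.16% of all genes tested) and 2 rose (4.88%, against 7.95%). Those that fell included Acaa2 (-0.42 ± 0.08) and Hadhb (-0.20 ± 0.05), which act in the last steps of mitochondrial beta-oxidation, and the fatty acid transporter Slc27a2 (-0.23 ± 0.06). The fatty acid binding protein gene Fabp1 rose from 3.02 to 6.06 CPM to 5.91 to 9.34 CPM (0.87 ± 0.18), and the thioesterase Acot4 rose by 0.20 ± 0.06, a call lost without any 1 of 9 libraries (adjusted p 0.0531 to 0.12). With total-count scaling 1 was called higher and 11 lower in this list, and in the shared model 1 and 0.

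Podocytes are the epithelial cells of the glomerular filter, and 0 of their 11 markers rose while 5 fell (45.5%, against 4.16% of all genes tested), with a median of -0.24. Nphs1, which encodes nephrin, went from 22.8 to 28.0 CPM, with a median of 24, to 16.4 to 21.7 CPM, with a median of 18.7 (-0.42 ± 0.08). The groups did not overlap. Synpo (-0.30 ± 0.07), Podxl (-0.24 ± 0.05) and Plce1 (-0.41 ± 0.13) fell as well, Plce1 with a call lost without any 1 of 9 libraries (adjusted p 0.0557 to 0.108). The summed level of the 11 markers went from 423 to 482 CPM to 356 to 400 CPM. The shared model over 36 libraries called 2 of them lower.

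**Figure D4:**
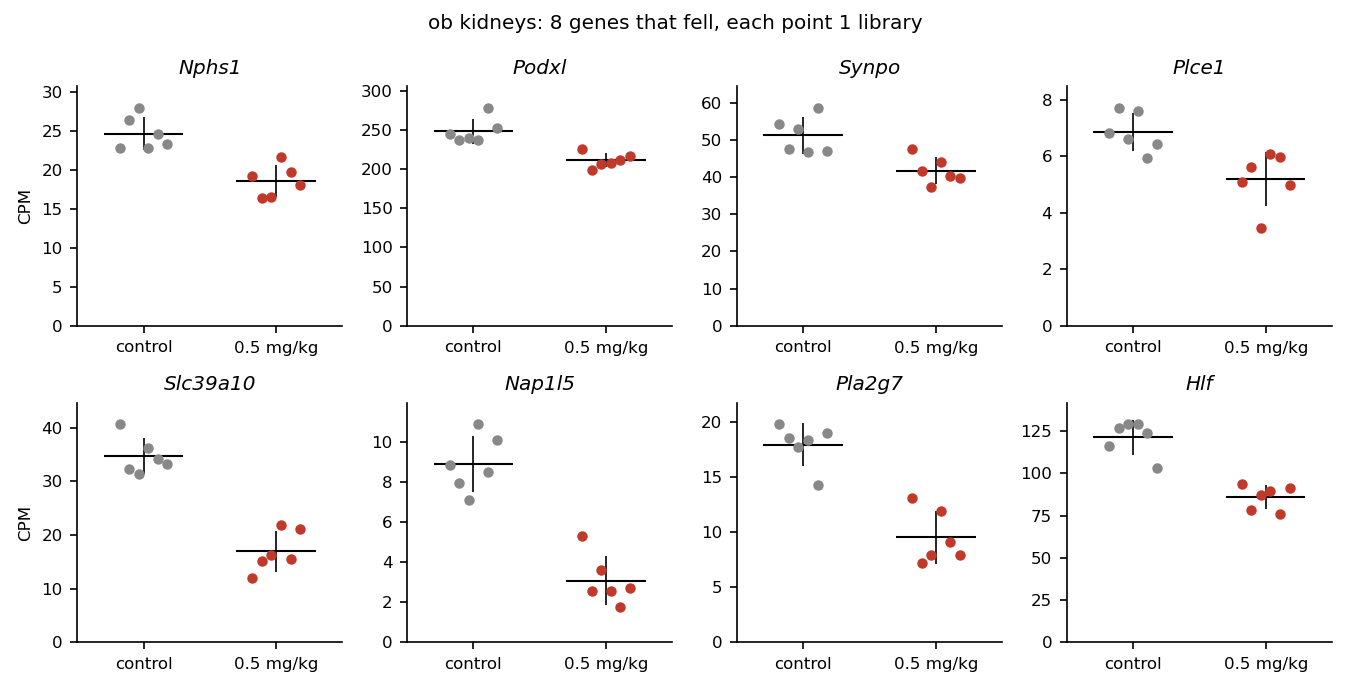
CPM of 8 genes that fell in each of the 12 libraries (y axes from 0), controls in grey and 0.5 mg/kg in red, with the group mean as a line and 1 SD as a bar. The 4 podocyte genes in the upper row fell by less than Slc39a10 and Nap1l5 in the lower row.

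Markers of the proximal tubule, the bulk of kidney cortex, were abundant in every library. The summed level of 14 proximal tubule markers was 21200 to 25200 CPM in controls and 22100 to 26600 CPM in treated libraries, with 0 higher and 2 lower (Slc27a2 and Aqp1). Slc27a2 lost its call without treated replicate 5 (adjusted p = 0.0535) and Aqp1 as given above. None of the 10 thick ascending limb markers (median -0.13) and none of the 8 tested principal cell markers (median -0.16) was called, although 0 in either list had a positive change, and scaling by total count called 2 and 3 of them lower. Of 9 distal tubule markers Slc12a3 fell (-0.26 ± 0.06), and of 12 endothelial markers Kdr fell (-0.24 ± 0.06), which scaling by total count turned to 5 and 7 lower. The summed endothelial level was 835 to 954 CPM in controls and 732 to 861 CPM in treated libraries, and the summed intercalated cell level 428 to 483 CPM and 362 to 443 CPM. Intercalated cell markers fell in 3 of 9, or in 1 without control replicate 4 or treated replicate 2 or 4, namely Atp6v0d2, Slc4a1 (-0.38 ± 0.11) and Slc4a9 (-0.26 ± 0.07), the last pair with calls lost without any 1 of 7 libraries each (adjusted p up to 0.072 and 0.0645). Of 14 macrophage and dendritic cell markers H2-Ab1 (0.39 ± 0.09) and Itgax (0.47 ± 0.14) rose and Csf1r fell (-0.31 ± 0.09), while Cspg4 of pericytes (0.43 ± 0.08) and Col3a1 of fibroblasts (0.40 ± 0.12) rose. Itgax, Csf1r and Col3a1 lost their calls without any 1 of 5, 8 and 9 libraries (adjusted p up to 0.0689, 0.073 and 0.0965). Of 11 tested lymphocyte markers and 3 tested neutrophil markers 0 were called by edgeR. For comparison with these counts, 7.95% of all genes tested rose and 4.16% fell.

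Fat markers varied widely among the libraries of both groups, and 1 of 10 tested, Car3, was called. Car3 was also the only tested member with a positive log2 change, and the median of the list was -0.38. Adipoq was at 0 to 6.51 CPM in controls and 0 to 10 CPM in treated libraries, and the highest values of Adipoq, Plin1 (7.03 CPM), Cfd and Lep (14.1 CPM) among treated libraries were all in replicate 2. Car3, a carbonic anhydrase abundant in fat, went from 19.9 to 41.0 CPM to 93.9 to 152 CPM (2.07 ± 0.19, adjusted p = 3.77e-05), and it was at 114 CPM in treated replicate 1, where Adipoq and Plin1 had no count. The part of fat in the Car3 values was not tested.

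Small falls were seen among clock genes. Of 21 clock genes 0 rose and 3 fell (14.3%, against 4.16% of all genes tested). The 3 were the transcription factor Hlf (-0.51 ± 0.06), Per3 (-0.38 ± 0.08) and Per1 (-0.41 ± 0.11). Per1 lost its call without treated replicate 2 (adjusted p = 0.0547). Of 30 immediate early and glucocorticoid-responsive genes 5 rose (16.7%, against 7.95% of all genes tested) and 7 fell (23.3%, against 4.16%). The number that rose was 3 without control replicate 1 or 2 or treated replicate 1 or 2. Myc (0.76 ± 0.13) and Jun (0.45 ± 0.08) rose, and the feedback inhibitors Dusp1 (-0.76 ± 0.16) and Errfi1 (-0.39 ± 0.06) fell. The shared model over 36 libraries called 0 higher and 2 lower in the second list and 0 in the first, while scaling by total count called 8 clock genes lower. The labels do not give the time of day at which kidneys were taken.

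The same dose was given to normal b6j mice, and the difference between the genotypes in the response was tested as an interaction over 24 libraries. In b6j kidneys 159 genes were called at 0.5 mg/kg in the fit of these 24 libraries (0.92% of 17282 tested), 118 higher (0.683%) and 41 lower (0.237%). The ob calls above came from a fit of 12 ob libraries alone. The numbers of calls in ob and b6j are therefore not like for like. Of the 1306 genes that rose in ob kidneys 95 also rose in b6j kidneys, and of the 683 that fell 12 also fell there. The interaction was called for 317 genes (1.83%), with the more positive change in ob for 254 (1.47%) and in b6j for 63 (0.365%). The b6j control replicate 4 stands apart, with Havcr1 at 181 CPM against 2.15 to 13.0 CPM in the other 5, and without it the interaction was called for 363 genes. The b6j calls include this library and were not counted again without it. The interaction shares the ob libraries with the comparison above, so the values of both are given side by side.

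Mt1 stood at 1150 to 1820 CPM in treated b6j kidneys, below all treated ob kidneys, from 94.3 to 141 CPM in b6j controls. Its log2 change was 3.56 ± 0.15 in b6j, and the difference was 1.09 ± 0.19 (adjusted p = 0.00223). For Mt2 the difference was 1.05 ± 0.41 and not called (adjusted p = 0.215). Hmox1 differed more: it reached only 102 to 135 CPM in treated b6j kidneys, from 37.7 to 71.6 CPM, and the difference was 3.27 ± 0.19 (adjusted p = 4.43e-10). Gstm3 (difference 3.93 ± 0.50) and Ugt2b35 (4.57 ± 0.80) rose in both genotypes and by more in ob. Gdf15 differed by 1.97 ± 0.36 and Eda2r by 2.04 ± 0.36, and neither was called in b6j. Psap rose in both, with a difference of 0.84 ± 0.10. For Havcr1 the difference of 4.92 ± 1.39 was not called (adjusted p = 0.0767), nor was it without b6j control replicate 4 (2.31, adjusted p = 0.108).

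Other genes were called in both genotypes with no called difference, which does not show that they responded alike. Slc39a10 fell by 0.77 on the log2 scale in b6j (adjusted p = 0.000758), with a difference of -0.27 ± 0.17. Gsta2 rose by 0.94 in b6j, with a difference of 0.15 ± 0.19, and Aldh1a1 by 1.28, with a difference of 0.35 ± 0.15. Cyp2c69 rose by 2.09 in b6j against 1.36 in ob, a difference of -0.73 ± 0.28 (adjusted p = 0.196). The podocyte gene Nphs1 differed between the genotypes by -0.65 ± 0.14 (adjusted p = 0.0117). Its level was also highest in ob controls, at 22.8 to 28.0 CPM against 9.46 to 15.5 CPM in b6j controls and 11.5 to 15.2 CPM in b6j kidneys at 0.5 mg/kg.

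**Figure D5:**
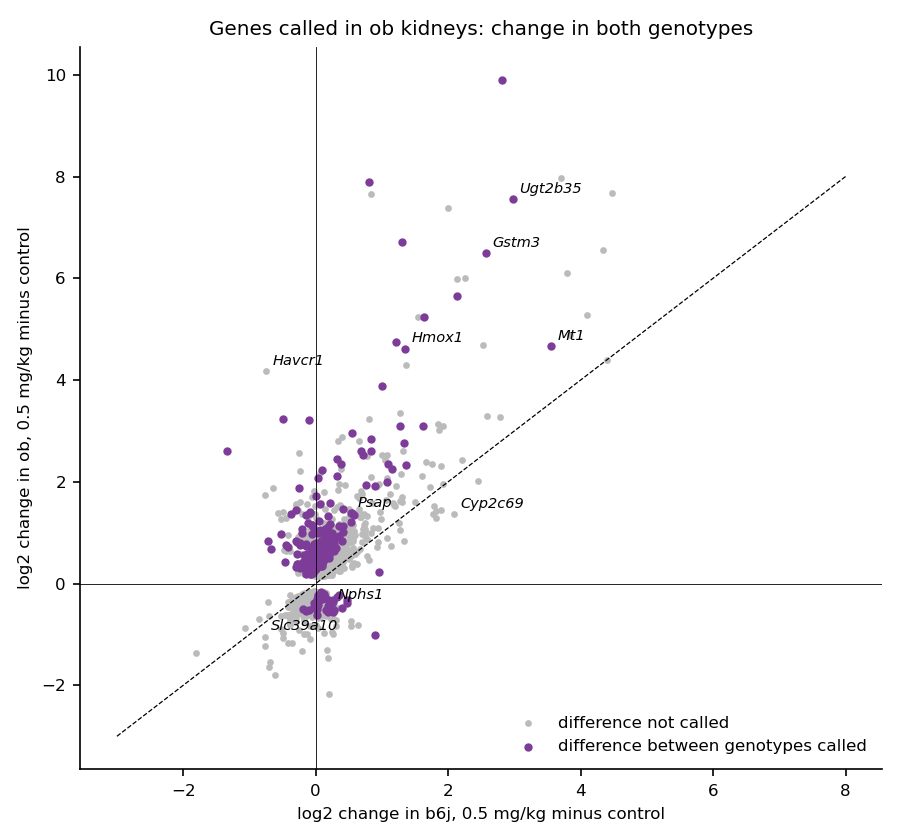
Log2 change at 0.5 mg/kg in ob kidneys (y axis) against that in b6j kidneys (x axis) for the genes called in ob, with genes whose change differed between genotypes in purple and equal change on the dashed line. Hmox1 lies far above the line, at 4.62 in ob and 1.35 in b6j, and Cyp2c69 lies below it, at 1.36 and 2.09.

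Between 0.5 and 2 mg/kg in ob kidneys, 3568 genes differed (20.7% of 17238 tested), 1937 higher (11.2%) and 1631 lower (9.46%) at 2 mg/kg. Replicate 5 of the 2 mg/kg group stands apart, with Lcn2 at 1560 CPM against 13.9 to 37.2 CPM in the other 5, and without it 4955 genes differed. This comparison shares the 0.5 mg/kg libraries with the one above, so the values of single genes are given, each followed by the value without that replicate.

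Havcr1 rose by a further 3.76 on the log2 scale at 2 mg/kg (3.19 without replicate 5) and reached 63.7 to 529 CPM. Lcn2, not called at 0.5 mg/kg, rose by 5.64 between the doses, and by 1.95 without replicate 5. Hmox1 rose by a further 1.14 (1.22 without it) and Cdkn1a by 3.05 (1.49). The step in Mt1 was smaller, 0.67 (0.60), with 3940 to 5400 CPM at 2 mg/kg. Psap did not pass the threshold between the doses, with 0.11 (0.09) and 3600 to 4510 CPM. Nor did Slc30a2, with 0.13 (0.11). Slc39a10 was slightly higher at 2 than at 0.5 mg/kg, by 0.41 (0.37), though still below controls, at 18.2 to 27.1 CPM.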

How the data were processed

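Total RNA was extracted from kidneys with TRIzol, and samples with an RNA integrity number above 6.5 were used, per the labels' protocols. The submitters' processing notes name bcl2fastq, FastQC, Trimmomatic and STAR. Read counts per gene were deposited by the authors and were made with featureCounts 1.4.6-p2 on exons of Ensembl annotation 96 for GRCm38, without strand, per the file headers. A joined table of the series was not used, 36 columns in all.

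From these counts, genes were kept by edgeR's filterByExpr, libraries were scaled by TMM, and the quasi-likelihood test (edgeR 4.0.16, R 4.3.3, robust) was run on 12 libraries, with Benjamini-Hochberg adjustment at 0.05. The common dispersion was 0.017, and 3 counts were worth 0.0869 to 0.108 CPM. The interaction used 24 libraries and the dose comparison 18. Standard errors are the fold change divided by the root of F. DESeq2 1.42.0, limma 3.58.1 (voom with sample weights), library size or RLE scaling, other filters, models over 36 or 35 libraries, a replicate block and leaving out each library were alternatives. No pair of libraries held identical values. On counts simulated for 16366 genes of the ob comparison, with 200 changed, the test found 76.3% of 1.5-fold and 92% of 2-fold changes, and 4% of its calls were false. The changed genes were drawn only from those with a positive average log2 CPM, with as many rises as falls. Genes of like level were given the same spread, and no library stood apart. The shares found do not cover genes at lower levels or smaller changes.

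The comparison, the members and the gene lists were chosen with earlier results of these data known. Named genes are Mt1, Mt2, Hmox1, Havcr1 and Lcn2, the 15 largest rises and falls of called genes averaging 5 CPM or more whose groups did not overlap, up to 5 called members of each described list by p, and list members whose role is stated. Ces1a, Gm45774 and the fat markers other than Car3 were added after their values were seen. Promoter sequences are from RefSeq (GRCm38.p6). A few named genes are not reported here.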

Additional observations from a re-analysis of the deposited data

Results flagged for a closer look

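In 20 of the 338 groups of 6 libraries tested for the named genes, 1 library lay far from the rest, where chance flags about 1 in 20 groups. Treated replicate 4 was low for Mt1 (2020 CPM against 2870 to 3200 in the others), Taldo1 (273 against 315 to 338), Clu (223 against 261 to 280) and Atp5d (477 against 556 to 595). Treated replicate 6 was high for Ugt2b34 (271 against 146 to 192), Gsta3 (417 against 336 to 350) and Ccng1 (368 against 237 to 267). Treated replicate 2 was high for Vim (50.1 against 39.5 to 42.5), Cxcl10 (8.27 against 4.47 to 5.75) and Bst2 (52.2 against 23.7 to 31.9). Treated replicate 1 was low for G6pdx (33.5 against 38.2 to 40.9) and high for Bax (36 against 31.4 to 33.0). Among controls, replicate 3 was high for Aldh1a1 (69.9 against 50 to 55.9) and Taldo1 (290 against 243 to 260) and low for Spp1 (700 against 900 to 1010). Control replicate 5 was low for Pla2g7 (14.3 against 17.7 to 19.8) and high for Gstm5 (141 against 121 to 128). The remaining flags were control replicate 2 for Gstm3 (0.551 against 0.161 to 0.278), control replicate 6 for Dnajb9 (45.8 against 50.8 to 53.1) and control replicate 1 for Cyp2c23 (64.7 against 86.0 to 96.1).

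The log2 change differed between ob and b6j kidneys, by the interaction test, for 59 of the 169 named genes, given here as ob minus b6j. Among metal, heme and iron genes the differences were 1.09 for Mt1, 0.94 for Slc30a2, 3.27 for Hmox1, 0.75 for Blvrb, 0.69 for Fth1 and 0.36 for Slc48a1. Among NRF2 targets and NADPH supply they were 0.78 for Txnrd1, 0.73 for Cbr1, 1.82 for Cbr3, 0.56 for Sqstm1, 0.44 for Rpia, 0.42 for Pgd, 0.51 for Me1 and 0.35 for Taldo1. Conjugation and related enzymes gave 3.93 for Gstm3, 3.6 for Gsta1, 1.79 for Gstm1, 0.38 for Gstm5, -0.37 for Gstt1, 4.57 for Ugt2b35, 2.01 for Ugt2b5, 1.43 for Ugt2b34, 1.03 for Ces2e, 1.03 for Ces2c, 1.49 for Cyp2a5, 0.52 for Cyp2j9, -0.8 for Cyp2c23, 1.5 for Aldh1b1, 1.81 for Maoa and, for the receptor Mas1, 3.53.

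Lysosomal genes differed by 0.84 for Psap, 0.63 for Ctsd, 0.39 for Ctsa, 0.48 for Ctsz and -0.38 for Atp6v0d2. Stress, p53 and growth genes differed by 1.97 for Gdf15, 0.72 for Trp53inp1, 0.6 for Bax, 2.04 for Eda2r, 0.68 for Ccng1, 1.2 for Myc and 0.93 for Cenpe. Injury and transport genes differed by 1.74 for Tnfrsf12a, -0.58 for Vim, -0.59 for Prom1, 0.79 for Slc20a1, 0.53 for Acsm1, 0.64 for Slco1a6 and -0.86 for Abcb1a. Podocyte genes differed by -0.65 for Nphs1 and -0.41 for Synpo. The rest were 0.51 for mt-Nd1, 0.58 for mt-Nd2, 0.43 for Cox6a1, 0.46 for B2m, 0.47 for Mvd, -0.65 for Cdkl1, -0.74 for Slc6a4 and -0.81 for Gm12121. Without b6j control replicate 4, Gsta1 (1.87, edgeR adjusted p = 0.289), Gstt1 (-0.32, 0.0646), B2m (0.43, 0.0544) and Cyp2c23 (-0.75, 0.051) lost the call, and Slc39a5 (0.43, 0.0467), Shmt2 (0.36, 0.0388), Podxl (-0.33, 0.0311) and Cspg4 (0.46, 0.0475) gained it.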

How the results depend on the processing

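Scaling by library size alone gave 3326 called genes, 822 higher and 2504 lower, so 24.7% of calls were rises against 65.7% with TMM, and it turned the log2 change of G6pdx, not called, to -0.03. The model over 36 libraries gave 775 calls, 645 higher and 130 lower, and took the call from 75 named genes. The 169 named genes include several, such as Lcn2 and G6pdx, that had no call to lose. With the 2 mg/kg library that stands apart left out, the model over 35 libraries gave 1786 calls. DESeq2 gave 2385 calls, voom 2202, RLE scaling 1994, no filter 2087 and a stricter filter 1975. Leaving out each library in turn gave 1538 to 2301 calls, 1079 to 1443 higher and 459 to 858 lower.

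The genotype difference was called for 317 genes, for 69 in the model over 36 libraries and for 580 by DESeq2. To look for pairing by replicate number, the deviations of each library from its group mean were correlated between controls and treated libraries. For same-numbered libraries these correlations ran from -0.224 to 0.051, and 2 of 6 controls correlated best with their own number. Such values do not show whether the numbers pair the libraries by design. A fit with the replicate number as a block gave 1624 calls, 1095 higher and 529 lower, 331 for the genotype difference and 2669 between the doses. With the block the genotype difference lost its call for Myc (edgeR adjusted p = 0.0501), Cenpe (0.0631), Atp6v0d2 (0.0556), Gsta1 (0.0571) and B2m (0.0669) and gained one for Dhrs7 (0.0461), Slc39a5 (0.00677), Shmt2 (0.0277), Rps20 (0.0402), Nusap1 (0.0338) and Acaa2 (0.0378). DESeq2 took it from none of the 59 named genes that had it. At this depth a gene needs about 0.0869 to 0.108 CPM to reach 3 counts in a library.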

Other observations

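Sterol synthesis genes, which are under the control of SREBP2, were counted in a list together with genes of fatty acid synthesis. In this joint list 7 of 38 tested were higher (18.4%, against 7.95% of all genes tested) and 1 was lower. The median log2 change was 0.01. The members that rose included Insig1, which holds back sterol synthesis when sterols are plentiful and went from 33.7 to 46.4 CPM in controls to 50.4 to 60.8 CPM at 0.5 mg/kg (0.50 ± 0.07, edgeR adjusted p = 5.92e-05), and the synthesis enzyme gene Mvd (0.39 ± 0.07). The intracellular cholesterol carrier Stard4 fell by 0.37 ± 0.07 on the log2 scale. Scaling by library size alone gave 5 higher and 4 lower, and the model over 36 libraries 3 and 0.

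Genes of the interferon response and of MHC class I rose in 6 of 36 tested (16.7%, against 7.95% of all genes tested), were not called in 30 and fell in 0, with a median of 0.20. B2m, the shared light chain of MHC class I, went from 202 to 239 CPM to 255 to 340 CPM (0.46 ± 0.07, edgeR adjusted p = 3.04e-05). Bst2 (0.97 ± 0.17), Cxcl10 (0.82 ± 0.16), Gbp3 (0.47 ± 0.13), Stat2 (0.33 ± 0.07) and Mx1 (1.26 ± 0.37) rose as well. Mx1 lost its call without any 1 of 4 libraries (adjusted p 0.0551 to 0.105), and the model over 36 libraries called 3 of the list. Treated replicate 2, the library with the most RNA of fat genes among the treated, was highest for Bst2 and Cxcl10, and the part of fat in those values was not tested. Of 25 genes of NF-kB and cytokine feedback 3 rose (12%, against 7.95%) and 0 fell, among them Nfkb2 (0.41 ± 0.07) and the chemokine Ccl2 (1.42 ± 0.41), which was at 0.193 to 0.592 CPM in controls and 0.207 to 1.8 CPM in treated libraries. Ccl2 lost its call without any 1 of 5 libraries (adjusted p 0.0504 to 0.0712).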
